A study of Rattus norvegicus with 18 samples.

Results

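The transcripts of 10 genes of antigen presentation by the major histocompatibility complex (MHC) were followed in kidney. They were taken by identifier from a count table of 55335 mouse Ensembl genes, and all 10 were found and passed the filter on low counts, which 19233 genes passed. On the class II side they encode the invariant chain (Cd74, ENSMUSG00000024610), the chains H2-Aa (ENSMUSG00000036594), H2-Ab1 (ENSMUSG00000073421) and H2-Eb1 (ENSMUSG00000060586), and the class II transactivator (Ciita, ENSMUSG00000022504). On the class I side they encode the light chain (B2m, ENSMUSG00000060802) and the heavy chains H2-K1 (ENSMUSG00000061232) and H2-D1 (ENSMUSG00000073411). A peptide transporter subunit (Tap1, ENSMUSG00000037321) and an immunoproteasome subunit (Psmb8, ENSMUSG00000024338) supply class I with peptides. The symbols come from the list that chose these genes, since the count table carries identifiers alone. Polyadenylated RNA was sequenced from 18 animals labelled Rattus norvegicus, 6 per group and 1 library each. The control group (Ctrl) had ordinary feed and gavage with solvent. The diabetic nephropathy model group (DN) had a high-fat diet and an STZ injection. The treated group (Treat) had the same diet and injection and then took TSK, known here by this abbreviation only, orally at 500 mg/kg a day for 4 weeks. It is not given whether untreated model animals received the solvent. The sources used here give no strain, sex or age, no STZ schedule and no measures of kidney disease that would define the model.

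Class I molecules, made of a heavy chain and B2m, present peptides from inside the cell on nearly all nucleated cells. The proteasome, in which Psmb8 replaces a constitutive subunit under interferon, cuts these peptides, and the transporter that contains Tap1 moves them into the endoplasmic reticulum. Class II molecules present peptides from the endocytic route, chiefly on dendritic cells, macrophages and B cells. They are assembled on the invariant chain, and Ciita is the co-activator that switches their genes on. In kidney, resident dendritic cells and macrophages carry most class II, and tubular epithelium can gain it in inflammation. Both classes rise with interferon gamma.

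Promoter sequence was at hand for 4 of the 10 genes, B2m, Cd74, Psmb8 and Tap1, matched by symbol in the RefSeq table of the rat build GRCr8, the labelled species. The windows are 300 bases long, 250 before and 50 after the annotated start. Both strands were searched for the core of the interferon-stimulated response element (GAAANNGAA), the gamma-activated site (TTCNNNGAA) and the Y box of MHC promoters (CTGATTGG). The motifs were chosen with earlier results of these data known, and shares of windows are given without a test. The first motif was found in 3 of the 4 windows, against 9.71% of all 33469 windows. The 3 stretches around it are shown because they hold this motif. A link between the motif and the levels of the members was not tested. Each stretch is written on the gene's own strand with the motif in capitals.
B2m: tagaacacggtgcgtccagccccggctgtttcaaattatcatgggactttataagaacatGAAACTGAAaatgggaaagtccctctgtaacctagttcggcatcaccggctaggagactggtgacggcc
Tap1: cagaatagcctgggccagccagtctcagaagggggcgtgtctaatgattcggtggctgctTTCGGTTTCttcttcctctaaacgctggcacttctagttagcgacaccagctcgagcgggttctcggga
Psmb8: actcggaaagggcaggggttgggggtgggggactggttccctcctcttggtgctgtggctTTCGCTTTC
The B2m stretch is chr3:129549120-129549248 on the plus strand, and its motif lies from -150 to -142 relative to the start, read on the gene strand. The Tap1 stretch is chr20:4668595-4668723 on the minus strand, with the motif on the opposite strand from -120 to -112. The Psmb8 stretch is chr20:4657026-4657094 on the minus strand, with the motif on the opposite strand from -3 to 6, counted without a position 0. A gamma-activated site was found in the Psmb8 window only (from -245 to -237), against 8.87% of all windows. The Y box was found in none of the 4, against 3.5% of all windows, and none of the 3 motifs was found in the Cd74 window. These matches describe the letters of a rat reference and carry no measurement from these animals.

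Totals of 22040987 to 35275498 counts per library put every member at 60 counts or more in every library, and 9 of them at 149 or more. Levels are given as counts per 1000000 counts of a library (CPM), scaled with trimmed-mean (TMM) factors. The counts were made on mouse genome builds although the labels say rat, and gene lengths were not used, so levels of different genes are not compared with each other. Of 89 symbols in 15 lists (other antigen presentation genes, regulators, and markers of leukocytes, kidney cells and hepatocytes) none could be matched to an identifier. The labelled tissue could therefore not be checked against its markers, and levels of immune-cell markers are not given beside the results. One feature of the controls touches every comparison with them. For 5 identifiers, 5 of the control libraries stood at least 10-fold apart from control library 4 and from all DN and Treat libraries (at least 50 counts on the high side), and no such identifier was found with another control in the place of library 4. For these 5 controls, model status and this division cannot be told apart. Control library 4, which lies with the DN and Treat libraries in that division, had the lowest level of all 18 libraries for 8 of the 10 members.

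DN against Ctrl sets the model kidney beside the control kidney. Of the 10 members, 9 rose in DN and none fell, against a background of 16.9% of the tested genes called higher and 15.3% called lower. The called class I chains rose between 2.0-fold and 2.58-fold, and the class II chains with Cd74 between 1.89-fold and 2.67-fold. Ciita was the member that was not called. The median log2 fold change was 1.23 over the 10 members and 0.008 over all genes tested. For the same 9 members every DN library lay above every control library, which held upward for 8.37% of the tested genes. In 7 members the rise was called and at least 2-fold, against 5.27% of genes. B2m, at 2.0-fold only after rounding, was not among these 7. Calls are Benjamini-Hochberg adjusted p-values under 0.05 over all 19233 genes from edgeR's quasi-likelihood test. In these bulk samples, more cells that carry the transcripts and more transcript per cell cannot be told apart.

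**Figure D1:**
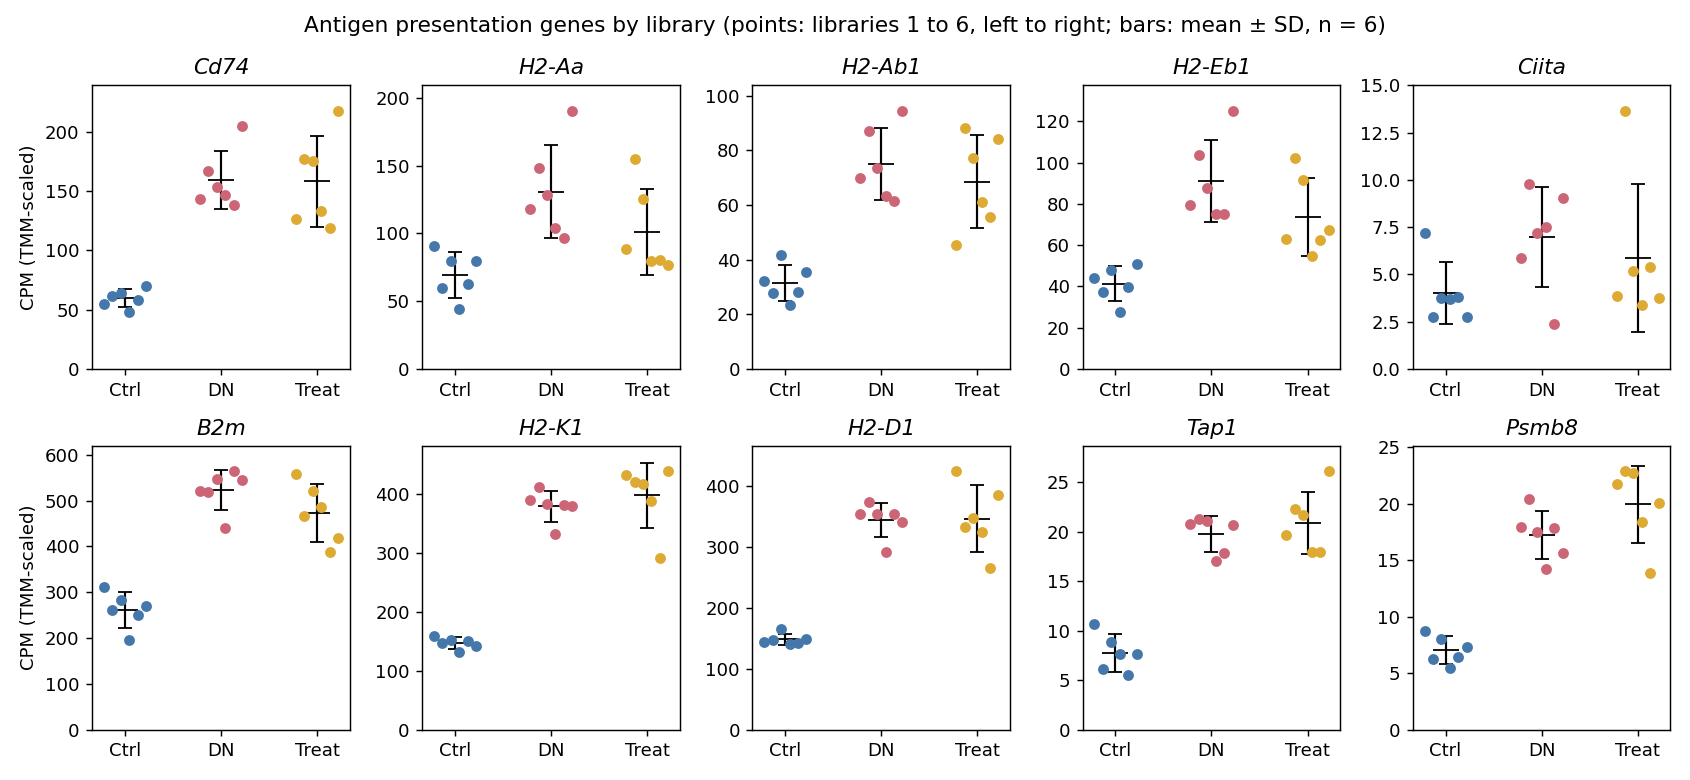
TMM-scaled CPM (vertical axes, from 0, separate scale per gene) of the 10 members in the Ctrl, DN and Treat groups. Points are libraries 1 to 6 from left to right, and bars are the mean with its SD (n = 6). In 9 panels all DN points lie above all Ctrl points, and in the Ciita panel the groups overlap.

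Among the class II genes, Cd74, the chaperone that fills the peptide groove until it is replaced, changed most. Its level was 48.2 to 70.3 CPM in Ctrl (median 60.2), 139 to 205 in DN (median 150) and 119 to 218 in Treat (median 155). The lowest DN library thus stood at about the double of the highest control library. The mean rose from 59.6 ± 7.68 to 159 ± 24.4 CPM (SD, n = 6; log2 fold change 1.42, SE 0.144, edgeR adjusted p = 1.24e-06), and 3.5% of all tested genes had a larger log2 fold change. H2-Ab1, the beta chain of the class II molecule A, lay at 23.3 to 41.8 CPM in Ctrl (median 30.3), 61.4 to 94.4 in DN (median 71.8) and 45.4 to 88 in Treat (median 69). No library of DN or Treat reached down to the controls. Its mean rose from 31.5 ± 6.53 to 74.9 ± 13.2 CPM in DN (SD, n = 6; log2 fold change 1.25, SE 0.168, edgeR adjusted p = 2.58e-05).

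H2-Eb1, the beta chain of the class II molecule E, lay at 27.6 to 50.6 CPM in Ctrl (median 42.1), 75.1 to 125 in DN (median 83.4) and 54.6 to 102 in Treat (median 65.3). All DN and Treat libraries again stood above all controls, with DN library 6 the highest. The rise in DN had a log2 fold change of 1.14 (SE 0.175, edgeR adjusted p = 9.87e-05). H2-Aa, the alpha chain that pairs with H2-Ab1, showed the smallest rise among the called members. It lay at 44.1 to 90.5 CPM in Ctrl (median 71.1), 96.6 to 191 in DN (median 123) and 77.1 to 155 in Treat (median 84.4). The DN libraries cleared the controls by a narrow gap, whereas 4 of the Treat libraries lay below control library 1. The mean went from 69.3 ± 17 to 131 ± 34.5 CPM in DN (SD, n = 6; log2 fold change 0.92, SE 0.209, edgeR adjusted p = 0.00273).

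Ciita, the regulator of the class II genes, had the fewest counts (60 to 310 per library) and the widest spread of the members. It lay at 2.72 to 7.18 CPM in Ctrl (median 3.75), 2.36 to 9.77 in DN (median 7.35) and 3.36 to 13.7 in Treat (median 4.51). Of the DN libraries 5 stood above the control median, while DN library 5 was the lowest of all 18. The log2 fold change of DN against Ctrl was 0.80 (95% interval 0.04 to 1.56, edgeR adjusted p = 0.0974), and DN and Ctrl overlapped. In the edgeR fit it was called without control library 1 (log2 fold change 1.05, adjusted p = 0.0376), without DN library 5 (0.98, adjusted p = 0.0374) and without treated library 2 (0.80, adjusted p = 0.0418). It was also called by limma voom, which was run with library quality weights (1.0, adjusted p = 0.0157). Over its alternatives the adjusted p ran from 0.0157 to 0.506.

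The class I heavy chains rose in DN with little spread between the animals of Ctrl and of DN. H2-K1 lay at 131 to 160 CPM in Ctrl (median 149), 332 to 412 in DN (median 383) and 292 to 439 in Treat (median 419). Its lowest DN library stood above the double of its highest control. The mean rose from 147 ± 9.68 to 380 ± 26.4 CPM (SD, n = 6; log2 fold change 1.37, SE 0.092, edgeR adjusted p = 2.39e-08), the 6th smallest p-value among all genes tested. H2-D1, the other heavy chain, lay at 141 to 166 CPM in Ctrl (median 146), 292 to 374 in DN (median 354) and 266 to 425 in Treat (median 340). As for H2-K1, the groups DN and Ctrl were far apart and DN library 4 was the lowest of its group. Its log2 fold change was 1.22 (SE 0.096, edgeR adjusted p = 8.57e-08).

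B2m, the light chain shared by class I molecules, lay at 195 to 311 CPM in Ctrl (median 266), 439 to 563 in DN (median 533) and 387 to 557 in Treat (median 475). Every DN and Treat library was above the highest control, library 1. The mean rose from 262 ± 38.9 to 522 ± 44.1 CPM in DN (SD, n = 6; log2 fold change 1.0, SE 0.109, edgeR adjusted p = 2.84e-06). H2 genes differ between strains and share sequence with related genes, so that reads could be lost or divided unevenly in counting, and the values of H2-K1, H2-D1 and the class II H2 genes are uncertain on that account. Of the members outside the MHC locus, Cd74 and B2m were called (log2 fold changes 1.42 and 1.0) and Ciita was not (0.80), and the part of strain differences in the result was not tested.

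Both peptide supply genes rose as well. Tap1 lay at 5.49 to 10.7 CPM in Ctrl (median 7.63), 17.1 to 21.3 in DN (median 20.7) and 17.9 to 26.1 in Treat (median 20.7). All DN and Treat libraries were above control library 1, the highest control. Its log2 fold change in DN was 1.35 (SE 0.14, edgeR adjusted p = 1.52e-06). Psmb8 lay at 5.43 to 8.76 CPM in Ctrl (median 6.85), 14.2 to 20.4 in DN (median 17.7) and 13.9 to 22.9 in Treat (median 20.9). The controls lay apart from the other groups, and DN and Treat overlapped. Its log2 fold change in DN was 1.29 (SE 0.135, edgeR adjusted p = 1.63e-06).

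When the control division entered the fit as a covariate, so that DN was set against control library 4, 986 genes were called in place of 6202. The number of called members was 9. With the covariate the log2 fold changes of the called members lay between 1.29 (H2-D1) and 1.72 (Cd74, H2-Eb1). H2-Aa moved most, from 0.92 to 1.57 (adjusted p = 0.0325). The reference in that fit is a single animal, and the one with the lowest level of all 18 for 8 of the members, so the larger folds follow from that library and the fit does not show whether the rise is separate from the division. With each library left out in turn, 9 or 10 members were called in DN.

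Treat against DN bears on the effect of TSK in the model animals. None of the 10 members was called by edgeR's quasi-likelihood test, by DESeq2 or by limma voom, and none had an unadjusted p under 0.05 in the edgeR fit. The background was 1.39% of the tested genes called in either direction and 16.4% with an unadjusted p under 0.05. The share of those calls that were higher in Treat was 38.4%, and scaling by library totals alone made it 84.4%, which shifted the median of all genes by 0.13 on the log2 scale. For all 10 members the ranges of the Treat and DN libraries overlapped, whereas Treat lay wholly above DN for 0.77% and wholly below it for 1.03% of the tested genes. The median log2 fold change was -0.07 over the members and -0.005 over all genes.

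The intervals show which changes these libraries leave possible. For H2-K1 the log2 fold change was 0.07 (95% interval -0.12 to 0.26) and for H2-D1 it was 0.01 (-0.19 to 0.21), with the sign of the latter turning under some alternatives. For Cd74 it was -0.01 (-0.30 to 0.29), and this sign also turned, with library totals among others (0.12). The class II chains had lower point values, -0.37 for H2-Aa (-0.81 to 0.06, edgeR adjusted p = 0.387), -0.30 for H2-Eb1 (-0.67 to 0.06, adjusted p = 0.401) and -0.13 for H2-Ab1 (-0.48 to 0.22, adjusted p = 0.748). H2-Aa and H2-Eb1 were above the DN median in 2 of 6 treated libraries. B2m stood at -0.15 (-0.37 to 0.08), with 1 of 6 treated libraries above the DN median. Psmb8 stood at 0.21 (-0.07 to 0.48) and Tap1 at 0.08 (-0.21 to 0.36), with 5 and 3 treated libraries above the DN median. Ciita had the widest interval, -0.25 (-1.01 to 0.50), and 1 treated library, number 2 at 13.7 CPM, stood above the DN median. Without that library the log2 fold change was -0.70 for Ciita and -0.54 for H2-Aa, and neither was called.

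**Figure D2:**
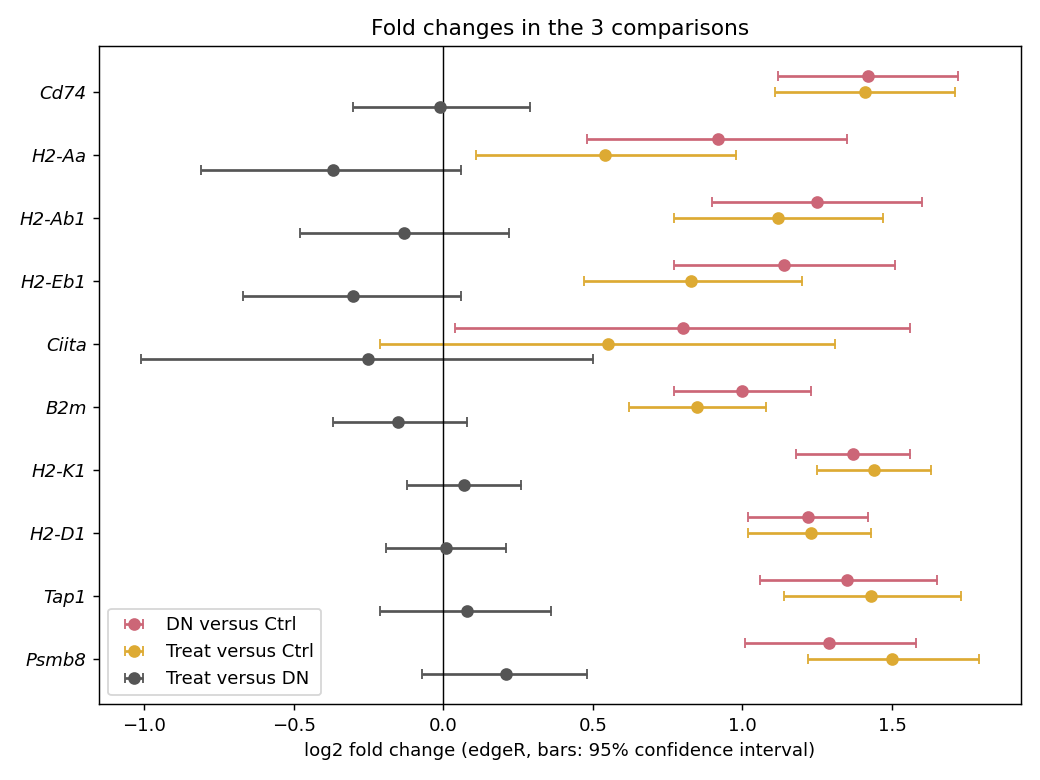
log2 fold changes (horizontal axis) of the 10 members with 95% confidence intervals from the edgeR fit, for DN versus Ctrl, Treat versus Ctrl and Treat versus DN. The intervals of Treat versus DN all include 0, while those of the other 2 comparisons lie above 0 for the 9 called members.

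Treat against Ctrl bears on what remained different under TSK. Again 9 members were higher and none lower, against 23% of the genes called higher and 21.9% called lower. Both comparisons with Ctrl use the same control libraries. The largest differences were those of Psmb8 (20 ± 3.43 CPM against 7.04 ± 1.23, SD, n = 6; log2 fold change 1.5, SE 0.135, edgeR adjusted p = 2e-07), H2-K1 (1.44) and Tap1 (1.43). Cd74 differed by 1.41, H2-D1 by 1.23, H2-Ab1 by 1.12, B2m by 0.85 and H2-Eb1 by 0.83 on the log2 scale, with edgeR adjusted p from 4.44e-08 to 0.000912. For these 8 members all Treat libraries were above all controls, which held upward for 11.5% of the tested genes.

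H2-Aa was the member whose call rested on single libraries. Its level in Treat was 101 ± 32.1 CPM (SD, n = 6; log2 fold change 0.54, SE 0.208, edgeR adjusted p = 0.0402). It was not called without control library 2 (adjusted p = 0.0811), 4 (0.0875) or 5 (0.0742), nor without treated library 2 (0.125) or 3 (0.0917), nor with the control division as a covariate (log2 fold change 1.2, adjusted p = 0.0644). Over its alternatives the adjusted p ran from 0.0166 to 0.125. Ciita was not called (log2 fold change 0.55, 95% interval -0.21 to 1.31, edgeR adjusted p = 0.228). Without treated library 2 its log2 fold change was 0.11.

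Ratios of counts within a library do not depend on library scaling, and they show where the counts of members moved unequally. These ratios were chosen after the values were seen and are given without a test. Those with an H2 gene carry the uncertainty of H2 counting given above, and its part in them was not tested. The log2 ratio of Cd74 to H2-Aa averaged -0.19 ± 0.31 (Ctrl), 0.31 ± 0.17 (DN) and 0.67 ± 0.45 (Treat; SD, n = 6 each). The controls reached up to 0.13 and the DN libraries down to 0.10, so these groups touched, while treated library 6 stood at 1.5 with 2.83 Cd74 counts per H2-Aa count. The log2 ratio of H2-Aa to its partner chain H2-Ab1 ran the other way, from 1.12 ± 0.21 in Ctrl to 0.78 ± 0.12 in DN and 0.55 ± 0.39 in Treat. Treated library 6 was lowest here too, at -0.12. H2-Aa to H2-Eb1 lay in the same order in its group means, 0.74 ± 0.15, 0.51 ± 0.09 and 0.44 ± 0.15.

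Among the class I chains, the log2 ratio of H2-K1 to B2m averaged -0.82 ± 0.15 (Ctrl), -0.46 ± 0.09 (DN) and -0.25 ± 0.18 (Treat; SD, n = 6 each). The highest control (-0.57) lay just below the lowest DN library (-0.56), and the Treat libraries ran from -0.41 to 0.07. The ratio of the heavy chains to each other differed less. H2-K1 to H2-D1 had a log2 ratio of -0.01 ± 0.11 in Ctrl, 0.14 ± 0.03 in DN and 0.20 ± 0.11 in Treat, with overlapping ranges. Tap1 to Psmb8 averaged 0.12 ± 0.25, 0.20 ± 0.15 and 0.08 ± 0.23 in the 3 groups, so that the group means lay within 1 SD of each other.

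**Figure D3:**
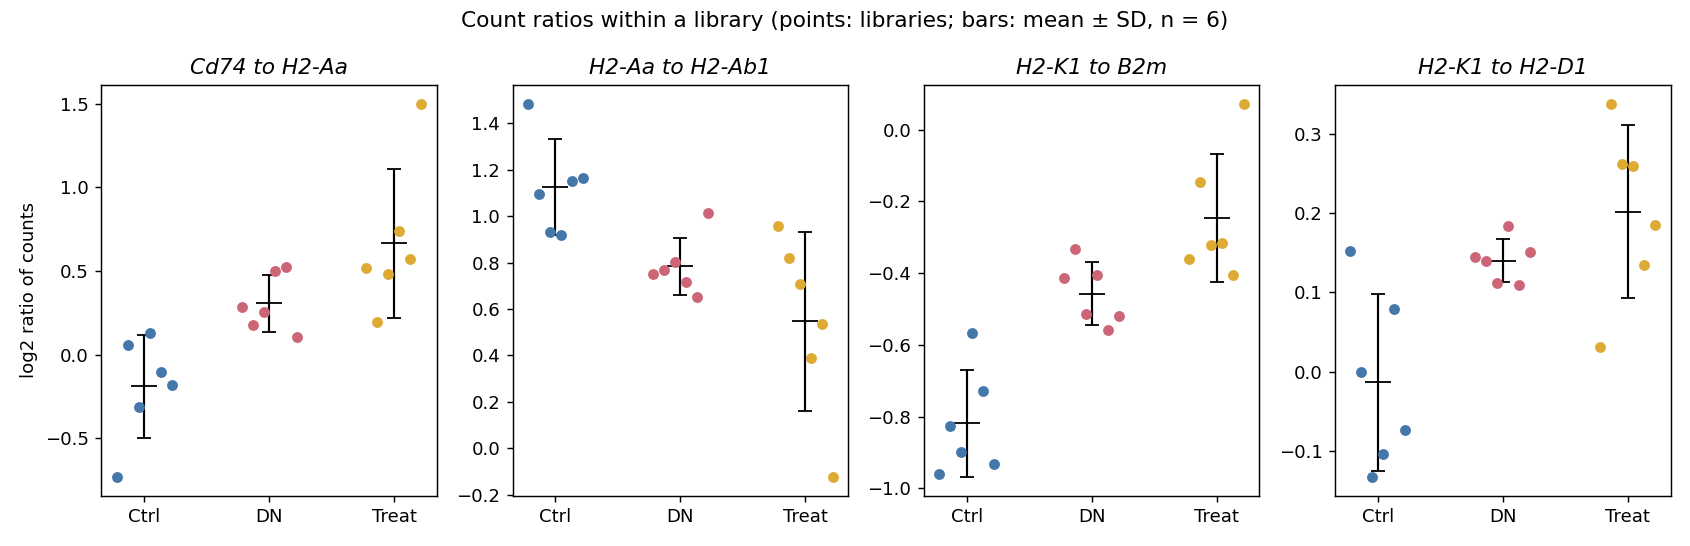
log2 ratios of raw counts within each library (vertical axes) for 4 pairs of members in Ctrl, DN and Treat. Points are libraries and bars the mean with its SD (n = 6). H2-K1 to B2m is higher in every DN and Treat library than in every control. Treated library 6 is the highest or lowest treated library in the first 3 panels.

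Within groups, some members also deviated together. For 8 pairs of members, log2 CPM deviations from the group mean were correlated over the 18 libraries. Two-sided permutation tests within groups were adjusted over the 8 pairs. No background of other gene pairs was taken, and the part of library scaling in these correlations was not tested. H2-K1 and H2-D1 deviated together (Pearson r = 0.83, permutation p = 0.00063, adjusted 0.00504; Spearman rho = 0.70, permutation p = 0.00308, adjusted 0.0246). Without treated library 5 and DN library 4, the farthest from the median of H2-K1, r was 0.56 (permutation p = 0.018), and within groups it was 0.26 in Ctrl, 0.98 in DN and 0.88 in Treat.

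Ciita deviated with H2-Aa (r = 0.68, permutation p = 0.0029, adjusted 0.00773; rho = 0.59, permutation p = 0.0151, adjusted 0.0404), and r was 0.53 without DN library 5 and treated library 2 (permutation p = 0.0403). Within groups r was 0.39 in Ctrl, 0.71 in DN and 0.85 in Treat. For Ciita with H2-Eb1 r was 0.55 (permutation p = 0.026, adjusted 0.0346) and rho was 0.50 (permutation p = 0.0495, adjusted 0.0793). Without the same 2 libraries r was lower, at 0.39 (permutation p = 0.137). Within groups it was 0.04, 0.63 and 0.82 in Ctrl, DN and Treat. Ciita with H2-Ab1 (r = 0.45, permutation p = 0.0811, adjusted 0.0927; rho = 0.37, permutation p = 0.149, adjusted 0.171) and with Cd74 (r = 0.20, permutation p = 0.483, adjusted 0.483; rho = 0.17, permutation p = 0.522, adjusted 0.522) did not pass. Without the same 2 libraries their r was 0.25 and -0.01. Within Ctrl, DN and Treat r was 0.05, 0.71 and 0.51 for H2-Ab1 and -0.52, 0.64 and 0.22 for Cd74.

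Tap1 and Psmb8 deviated together (r = 0.61, permutation p = 0.0161, adjusted 0.0269; rho = 0.66, permutation p = 0.00878, adjusted 0.0351). Within groups r was 0.70 in Ctrl, 0.60 in DN and 0.56 in Treat, and without control libraries 1 and 5 it was 0.55 (permutation p = 0.0508). B2m with H2-K1 had r = 0.66 (permutation p = 0.00235, adjusted 0.00773) but rho = 0.43 (permutation p = 0.0991, adjusted 0.132), and B2m with H2-D1 had r = 0.57 (permutation p = 0.0168, adjusted 0.0269; rho = 0.51, permutation p = 0.0482, adjusted 0.0793). Without control library 4 and treated library 5, r was lower, at 0.44 for each (permutation p = 0.0765 and 0.105). Within Ctrl, DN and Treat r was 0.89, 0.74 and 0.64 for H2-K1 and 0.42, 0.82 and 0.66 for H2-D1.

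Summed over genes, the class I chains (B2m, H2-K1, H2-D1) took 467.3 to 614.2 CPM of a control library, 1063.3 to 1305 of a DN library and 945.1 to 1415.2 of a treated library. The class II genes with Cd74 took 143.3 to 236.2, 371.8 to 614.7 and 317.9 to 522.8 CPM. The controls formed 1 set with low sums of both, and the other libraries varied in both sums. Treated library 1, with the highest class I sum (1415.2), had a class II sum of 323.1, while DN library 6 had 1266.6 and 614.7.

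**Figure D4:**
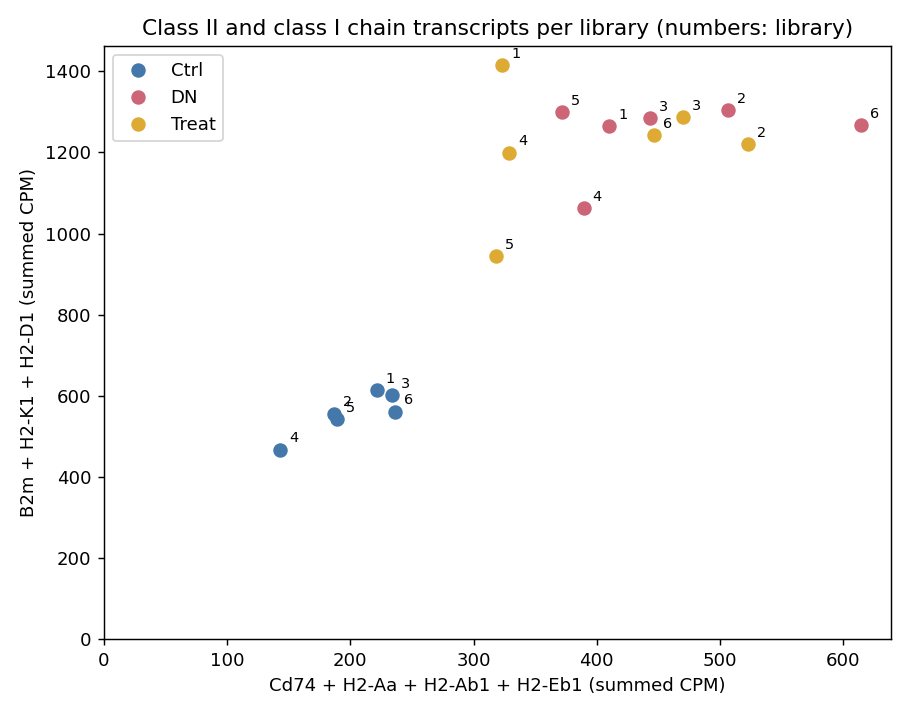
Summed CPM of Cd74, H2-Aa, H2-Ab1 and H2-Eb1 (horizontal axis) and of B2m, H2-K1 and H2-D1 (vertical axis) in each library, numbered by replicate and coloured by group, both axes from 0. The 6 controls lie at class I sums of at most 614.2 CPM, and all DN and Treat libraries at 945.1 or more.

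Among 15862 other genes with a mean of at least 1 CPM, the identifier whose log2 CPM followed the class II mean most closely over the 18 libraries was ENSMUSG00000027962 (Pearson r = 0.939). For the class I mean it was ENSMUSG00000066861 (r = 0.985). Both were chosen for this likeness, which includes the step between groups, and are described without a test. ENSMUSG00000027962 averaged 16.1 ± 3.09 CPM (Ctrl), 42.9 ± 5.82 (DN) and 41.8 ± 7.01 (Treat; SD, n = 6 each). ENSMUSG00000066861 averaged 0.831 ± 0.157, 6.04 ± 1.12 and 6.78 ± 1.11 CPM. Of the members left out of the class I mean, Psmb8 followed it most closely (r = 0.977) and Ciita least (r = 0.392).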

How the data were processed

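The authors deposited raw counts per gene and library with no normalization, as the values show (whole numbers with differing totals). Per the labels' protocols, RNA was purified on Qiagen columns and 1.3 µg went into a SMARTER mRNA library. Per the submitters' processing notes the builds were GRCm38 and mm10, mouse builds, while the labels say rat. If the animals were rats, reads differing from mouse sequence could be lost unevenly between genes. Aligner, counter, annotation and strand handling were not given in the sources used here. Without strand, reads of overlapping antisense genes cannot be told apart.

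Columns were assigned through the library names in the labels. The deposited counts entered edgeR 4.0.16 (R 4.3.3): filterByExpr, TMM factors, all 18 libraries in 1 fit with a coefficient per group, quasi-likelihood F-tests. Standard errors came from the F statistics. Log2 CPM used a prior count of 2. The common biological coefficient of variation was 0.273, which is 1 value for all genes tested. The SD of a member's CPM within a group ran from 6.23% of its mean (H2-D1 in Ctrl) to 66.7% (Ciita in Treat). The fit was tested on simulated data. Correlations used 100000 shuffles (20000 with 2 libraries left out). Alternatives were DESeq2 1.42.0, limma 3.58.1 voom with library quality weights, other scalings, filters and library subsets. Same-numbered libraries of different groups did not deviate together (correlations from -0.221 to 0.232), so no pairing was used.

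The members, lists, motifs and alternatives were chosen with earlier results of these data known. The rule for named genes took all 10 members, listed genes where symbols could be matched (none could), and the genes most alike in pattern, of which 1 per class is printed. Nothing says how tissue was sampled, and the p-values of the comparisons set group differences against the spread between these animals.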

Additional observations from a re-analysis of the deposited data

Results flagged for a closer look

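In each group of 6 libraries, the highest and lowest log2 CPM of each member were compared with the nearest library. In 7 of 30 groups a library stood apart, with a share of the range above Dixon's 95% critical value for 6 samples. Chance gives about 1 in 20 groups, and members that vary together are not independent. Ciita gave 3 of them: control library 1 was high at 2.86 (next 1.95), DN library 5 low at 1.28 (next 2.57) and treated library 2 high at 3.78 (next 2.44). DN library 4 was the lowest DN library for B2m at 8.78 (next 9.02) and for H2-D1 at 8.19 (next 8.42). Treated library 5 was low for H2-K1 at 8.19 (next 8.61), and control library 3 was high for H2-D1 at 7.38 (next 7.22).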

How the results depend on the processing

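Over 28 alternatives, the number of members called stayed at 9 or 10 in DN versus Ctrl, 8 or 9 in Treat versus Ctrl and 0 in Treat versus DN. The exceptions were the calls of Ciita and H2-Aa given above. H2-Aa was also lost in Treat versus Ctrl with no filter (adjusted p = 0.0586) and without control library 4 and treated library 1 together (0.0681). In Treat versus DN, the sign of 2 members turned, with no call in any alternative. Cd74 went from -0.01 to 0.003 with DESeq2 and with RLE size factors, 0.0045 with only the 12 libraries compared, 0.12 with library totals, 0.07 without control library 4 and treated library 1, and -0.12 to 0.08 with single libraries left out (above 0 without DN library 2 or 6 and without treated library 1, 4 or 5). H2-D1 went from 0.01 to -0.05 with limma voom, -0.04 without control library 4 and treated library 1, and -0.06 to 0.07 with single libraries left out (below 0 without DN library 4 and without treated library 1 or 6). The cause was not tested.

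Counts over all genes moved more. With the control division as a covariate 986 genes (against 6202) were called in DN versus Ctrl and 1862 (against 8629) in Treat versus Ctrl, since 1 control then sets the reference. The share of calls higher in Treat than in Ctrl was 51.2%, and 64.5% with library totals. The 268 calls of Treat versus DN became 799 with DESeq2, 775 with library totals, 119 with no filter, 116 with only the 12 libraries compared, 737 with limma voom, 593 without control library 4 and treated library 1, and 97 to 446 with single libraries left out. This count moved by over 1.5 times without control library 6 (164), without DN library 1 (152), 2 (119), 4 (97) or 6 (125), or without treated library 1 (446), 3 (119) or 6 (160). With the replicate number as a block they were 117, and 9, 0 and 9 members were called in the 3 comparisons, as without it. Of 6 same-numbered pairs per 2 groups, at most 2 libraries correlated best with their own number, and the numbers are taken as names.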
